A study of Homo sapiens with 6 samples.

Results

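The genes described here are 5 subunits of the transcription factor NF-kB (NFKB1, NFKB2, REL, RELA and RELB) and 5 genes whose products restrain it (NFKBIA, NFKBIB, NFKBIE, NFKBIZ and TNFAIP3). They were chosen by name, as every probe set whose annotated gene symbol is one of these 10, which gave 22 probe sets. The arrays measured 19775 genes in all. MCF10A, a non-tumorigenic human mammary epithelial line, had received either a miR-221 and miR-222 mimic (the mimic arrays) or a control microRNA (the control arrays). Each group had 3 biological replicates with 1 array each, and all 6 arrays came from this 1 line. The labels used here give neither the dose nor the time after transfection, and a transfected mimic can raise a microRNA above the level a cell makes itself.

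NF-kB is a family of dimeric transcription factors. In resting cells the dimers are held in the cytoplasm by IkB proteins. Receptors for tumour necrosis factor, interleukin-1 and microbial products activate the IKK kinases, IkB is phosphorylated and degraded, and the dimers enter the nucleus and turn on genes of inflammation and survival. Among their targets are IkB genes and TNFAIP3 themselves, which closes a negative feedback loop. In mammary epithelial cells the pathway drives chemokine production and takes part in growth and survival. TNFAIP3 has been reported as a target of miR-221 and miR-222, so its level is of interest in both groups.

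The mature strands of both microRNAs are shown because they share their seed, the stretch of bases 2 to 8 that does most of the pairing with a messenger RNA. The sequences are those of RefSeq on GRCh38.p14, and the capitals mark the seed. The mature strand of miR-221 lies at chrX:45746180-45746202 and that of miR-222 at chrX:45747036-45747056, both on the minus strand. The labels do not name the arm of the mimic, and the 3p arms shown are the usual meaning of these names.
hsa-miR-221-3p: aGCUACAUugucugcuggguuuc
hsa-miR-222-3p: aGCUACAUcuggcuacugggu
Their first 8 bases are identical, so both have the seed GCUACAU.

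The stretches before the starts of REL, NFKBIA, TNFAIP3 and NFKB1 are shown because the first 3 of these genes were the members that changed and the last is one that did not pass the test. Each is the 100 bases before a RefSeq start on GRCh38.p14, written 5′ to 3′ along the gene. The capitals mark matches, on either strand, to the kB consensus motif, the 10-base sequence that NF-kB dimers are known to bind. REL is shown at chr2:60881474-60881573 and TNFAIP3 at chr6:137867159-137867258, both on the plus strand. NFKBIA is shown at chr14:35404750-35404849 on the minus strand and NFKB1 at chr4:102501259-102501358 on the plus strand.
REL: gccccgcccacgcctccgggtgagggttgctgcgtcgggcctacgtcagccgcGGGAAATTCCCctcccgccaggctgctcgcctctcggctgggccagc
TNFAIP3: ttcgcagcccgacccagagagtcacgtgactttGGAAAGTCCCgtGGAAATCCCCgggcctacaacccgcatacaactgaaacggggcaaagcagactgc
NFKBIA: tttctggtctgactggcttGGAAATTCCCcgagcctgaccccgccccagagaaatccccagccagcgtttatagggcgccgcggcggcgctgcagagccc
NFKB1: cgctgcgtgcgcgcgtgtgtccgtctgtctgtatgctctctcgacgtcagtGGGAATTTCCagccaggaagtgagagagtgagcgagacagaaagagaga
In REL 2 overlapping matches begin 47 and 46 bases before the start. TNFAIP3 has 2 separate matches, which begin 67 and 55 bases before it. NFKBIA has 1 match in its window, beginning 81 bases before the start, and NFKB1 has 1, beginning 49 bases before it.

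Over the 250 bases before each start, the motif was found in at least 1 window of 7 of the 8 members with a window in the table, namely NFKB1, NFKB2, REL, NFKBIA, NFKBIB, NFKBIZ and TNFAIP3. Of all 27305 genes with a window, 11.8% had it. Counted by window, 9 of 14 member windows held the motif, beside 9.96% of all 35116. RELA, which encodes the main activating subunit, had no match in its 2 windows. RELB and NFKBIE were not among the windows. The matches were found in members that changed and in members that did not pass the test, and a match is a description of letters, not a binding site.

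The array medians lay between 7.59 and 7.66 on the log2 scale. Arrays of a group correlated with r of at least 0.9953 across probe sets, which are not independent replicates. Of the 10 epithelial markers of this line that were looked for, 7 were measured, and all had means above the array medians in both groups, from 8.66 to 11.89 in the mimic arrays and from 10.20 to 13.50 in the control arrays. All 7, the basal keratin genes KRT5 and KRT14 among them, were lower in the mimic arrays (median difference -1.23), and their part in the results below was not tested. The list's mean value lay between 11.02 and 11.13 on the mimic arrays and between 12.25 and 12.33 on the control arrays. The 6 measured blood cell markers averaged from 6.60 to 9.15 in the mimic arrays and from 6.69 to 9.96 in the control arrays, with 3 of the 6 above the array medians and the pan-leukocyte marker PTPRC (7.16 and 7.07) below them. Of these 6 markers 1 was higher and 1 lower, of 8 fibroblast markers 1 was higher and 2 lower, and of 8 endothelial markers 1 was lower.

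The question was which members of the pathway changed in RNA level when the mimic replaced the control microRNA. REL rose most, to 2.67 times its control level, while the other 4 subunits, each at its brightest probe set, had differences of at most 0.17 on the log2 scale in either direction and did not pass. Among the inhibitors, NFKBIA and TNFAIP3 rose modestly, by 1.33-fold and 1.32-fold, and NFKBIB, NFKBIE and NFKBIZ did not pass. A gene was read at its brightest probe set, and a call is an adjusted p under 0.05 in limma over all probe sets (Benjamini-Hochberg). By that rule 3 of the 10 members were higher and 0 lower; at an unadjusted p under 0.05 RELB would be added. Of all 19775 genes 30.4% were called, 14.1% higher and 16.3% lower, so the number of members called is near the background. The arrays of the groups did not overlap for 7 of the 10 members, beside 45.6% of all genes. The median difference was 0.12 over the members and 0.03 over all genes. In bulk RNA such as this, fewer cells of a type and less RNA per cell cannot be told apart.

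**Figure D1:**
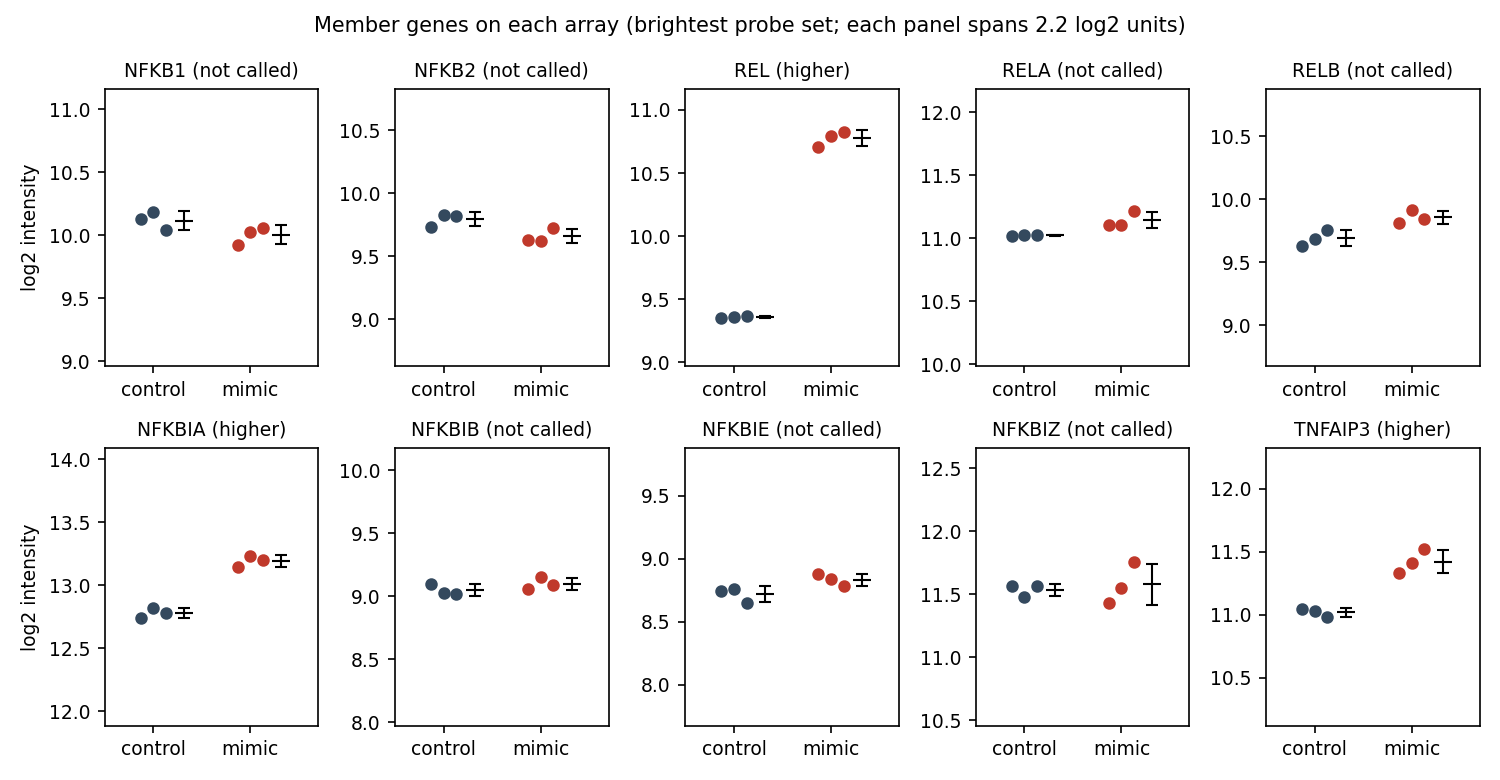
Each panel plots the log2 intensity of 1 member gene on the 3 control arrays (dark) and the 3 mimic arrays (red), with the mean and SD as a bar beside the points; every panel spans the same range of log2 units. The REL arrays stand far apart, those of NFKBIA and TNFAIP3 stand apart by about 0.4, and those of NFKB1, NFKBIB and NFKBIZ overlap.

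REL encodes c-Rel, a subunit with a transactivation domain that is best known from lymphocytes. At its brightest probe set, 235242_at, REL read 10.70, 10.80 and 10.83 on the mimic arrays and 9.35, 9.36 and 9.36 on the control arrays. The groups lay far apart, with every mimic array more than 1 log2 unit above every control array. The means were 10.78 ± 0.06 and 9.36 ± 0.0078 (SD, n = 3 each). The difference was 1.42 ± 0.06 (SE), with a 95% interval from 1.28 to 1.55 (limma adjusted p = 3.74e-08). This was rank 73 of the 19775 genes ordered from the highest difference, and 0.369% of genes had a difference at least as high. REL was the 1 member among the 190 genes (0.961%) that were called and at least 2-fold higher.

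All 5 REL probe sets were higher in the mimic arrays, but not by the same amount. Probe set 228812_at read 10.13, 10.27 and 10.26 on the mimic arrays and 8.61, 8.55 and 8.53 on the control arrays, a difference of 1.66 ± 0.06 (SE). At 239486_at the mimic arrays read 9.20, 9.10 and 9.01 and the control arrays 7.48, 7.59 and 7.61, a difference of 1.54 ± 0.07 (SE). At 206036_s_at they read 10.47, 10.55 and 10.55 against 9.13, 9.17 and 9.10, a difference of 1.39 ± 0.06 (SE). These 4 probe sets had 95% intervals between 1.25 and 1.80.

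The fifth REL probe set, 206035_at, gave a smaller difference of 0.46 ± 0.12 (SE), with a 95% interval from 0.20 to 0.71 that does not reach those of the others. Its mimic arrays read 7.35, 7.43 and 7.87 and its control arrays 7.03, 7.14 and 7.09, below the array medians but for mimic replicate 3. Its mimic replicate 3 stood above the other mimic arrays, and the groups still did not overlap. The call at this probe set (limma adjusted p = 0.0131) was lost without control replicate 1 (adjusted p = 0.0549). Which part of the transcript each probe set reads was not analysed here.

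**Figure D2:**
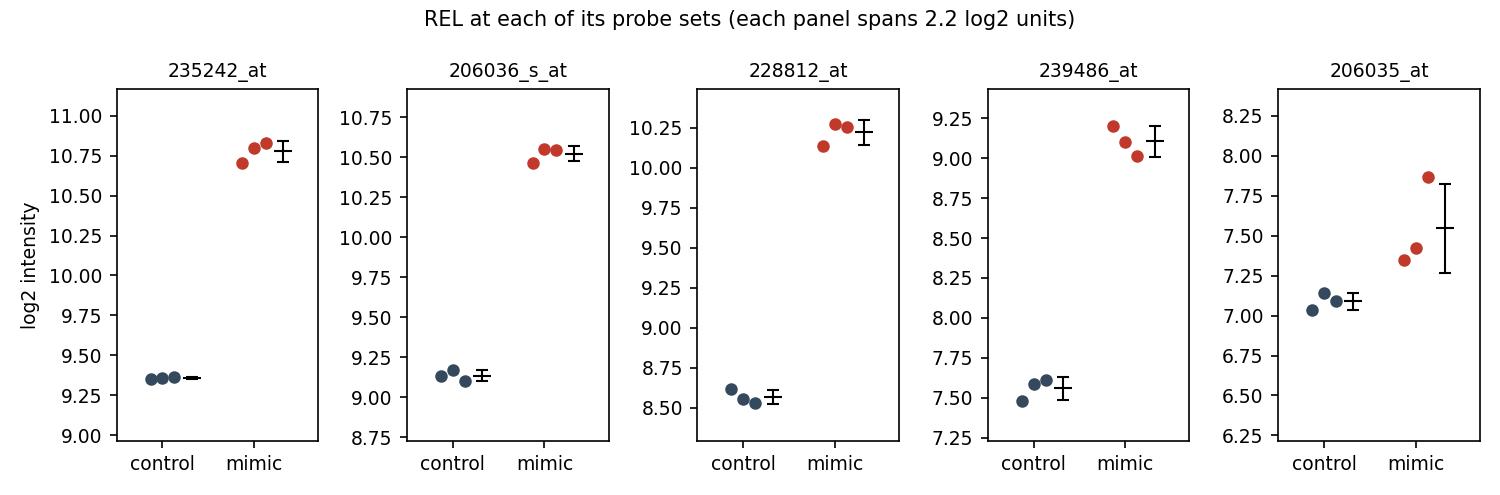
Log2 intensity of REL at each of its 5 probe sets, control arrays dark and mimic arrays red, with mean and SD; all panels span the same range. The groups are separated at every probe set, by 1.39 to 1.66 at 4 of them and by 0.46 at 206035_at.

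RELA encodes p65, the subunit that carries most NF-kB activation in epithelial cells. At 201783_s_at it read 11.11, 11.11 and 11.21 on the mimic arrays and 11.02, 11.02 and 11.03 on the control arrays. The mimic arrays lay just above the control arrays, by 0.12 ± 0.06 (SE), with a 95% interval from -0.01 to 0.25 (limma adjusted p = 0.191). Its other probe set, 209878_s_at, overlapped between the groups, with a difference of 0.04 ± 0.07 (SE).

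RELB encodes the activating subunit of the non-canonical pathway. It read 9.81, 9.92 and 9.84 on the mimic arrays and 9.63, 9.68 and 9.76 on the control arrays, at its 1 probe set. The groups did not overlap, and the difference of 0.17 ± 0.06 (SE) had a 95% interval from 0.03 to 0.31 and missed the threshold (limma adjusted p = 0.0860). RELA and RELB passed the threshold when the arrays were quantile normalized again (adjusted p = 0.0273 and 0.0165, differences of 0.19 and 0.24), which made 5 members higher. In that fit 3418 of all 19775 genes were higher, beside 2780 in the main fit. RELB also passed with array weights (adjusted p = 0.0107). There mimic replicate 2, the array with the highest RELB value, had a weight of 3.17, and mimic replicates 1 and 3 had 0.41 and 0.784. Over the 16 alternatives the adjusted p of RELA ran from 0.0273 to 0.425 and that of RELB from 0.0107 to 0.277.

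NFKB1 and NFKB2 encode precursors that are cut to DNA-binding subunits without a transactivation domain, and the uncut forms hold other subunits in the cytoplasm. NFKB1 read 9.92, 10.03 and 10.06 on the mimic arrays and 10.12, 10.18 and 10.04 on the control arrays. The groups overlapped, and the difference of -0.11 ± 0.07 (SE) had a 95% interval from -0.26 to 0.04 (limma adjusted p = 0.269).

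NFKB2 at its brightest probe set, 207535_s_at, read 9.63, 9.63 and 9.72 on the mimic arrays and 9.73, 9.83 and 9.82 on the control arrays. All mimic arrays were lower than all control arrays, with mimic replicate 3 closest to them, and the difference was -0.13 ± 0.06 (SE; 95% interval -0.27 to 0.0064, limma adjusted p = 0.162). Its 2 dimmer probe sets gave -0.01 ± 0.08 and 0.19 ± 0.10 (SE), and both overlapped between the groups. With its 3 probe sets averaged, the NFKB2 difference was 0.0144, so no direction can be given for it.

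The balance of REL against the other subunits was read as a log2 ratio within each array, where the change in the ratio has meaning and its absolute level has not. REL minus RELA was -0.41, -0.31 and -0.39 on the mimic arrays and -1.67, -1.67 and -1.66 on the control arrays, a change of 1.30. The changes were 1.53 against NFKB1, 1.55 against NFKB2 and 1.25 against RELB. In each of the 4 ratios every mimic array lay above every control array. An exact two-sided permutation test gave p = 0.10 for each, adjusted p = 0.10 over the 4, which is the smallest value that 3 arrays against 3 allow. All 4 ratios use the same REL values, and REL was already the member with the largest difference. The separation therefore follows from the REL rise, and the ratios are not separate tests of the balance.

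**Figure D3:**
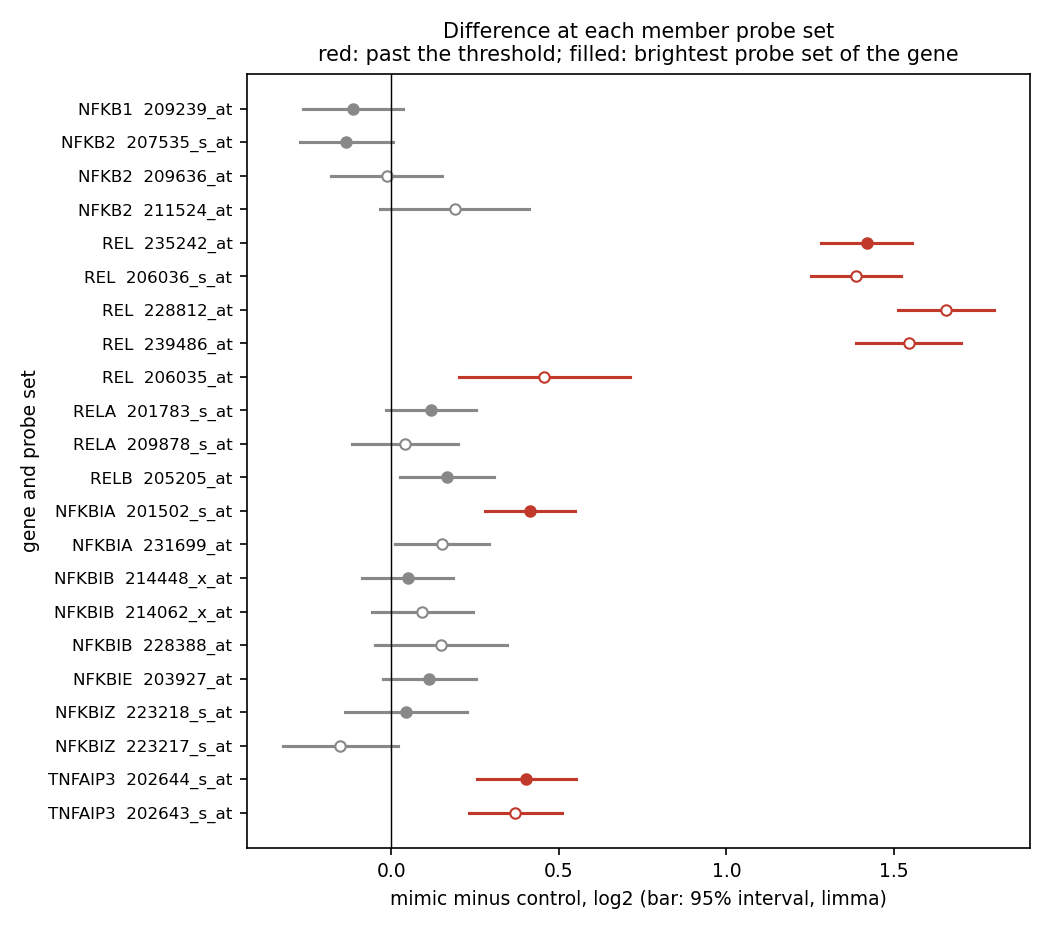
Difference between mimic and control arrays at each of the 22 member probe sets on the log2 scale, with its 95% interval; red marks a probe set past the threshold and a filled point the brightest probe set of the gene. Of the REL points 4 lie above 1.3, the fifth REL point, both TNFAIP3 points and 1 of the 2 NFKBIA points lie between 0.37 and 0.46 and are also red, and the 14 grey points lie between -0.15 and 0.19.

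NFKBIA encodes IkB-alpha, the inhibitor that NF-kB resupplies fastest after activation. At 201502_s_at it read 13.14, 13.24 and 13.20 on the mimic arrays and 12.74, 12.82 and 12.78 on the control arrays. The groups did not overlap, and the means were 13.19 ± 0.05 and 12.78 ± 0.04 (SD, n = 3 each). The rise was 0.41 ± 0.06 (SE), with a 95% interval from 0.28 to 0.55 (limma adjusted p = 4.17e-04). The second NFKBIA probe set, 231699_at, read 7.31, 7.33 and 7.30 against 7.21, 7.07 and 7.20, below the array medians. The groups were apart there as well, with the mimic arrays higher, but the difference of 0.15 ± 0.06 (SE) did not pass (adjusted p = 0.113), so the call rests on the brighter probe set.

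TNFAIP3 encodes a ubiquitin-editing enzyme that switches off signalling upstream of the IKK kinases. It read 11.33, 11.41 and 11.52 on the mimic arrays and 11.05, 11.03 and 10.98 on the control arrays at 202644_s_at. Every mimic array was above every control array, so this reported target was higher, not lower, with the mimic. The means were 11.42 ± 0.09 and 11.02 ± 0.03 (SD, n = 3 each), and the difference was 0.40 ± 0.07 (SE; 95% interval 0.26 to 0.55, limma adjusted p = 9.00e-04). The second probe set, 202643_s_at, read 10.37, 10.43 and 10.44 against 9.97, 10.10 and 10.05. It rose by nearly the same amount, 0.37 ± 0.06 (SE, adjusted p = 0.00108). TNFAIP3 was called under all 16 alternatives, with differences from 0.36 to 0.47 and adjusted p-values of at most 0.00555. Some of these alternatives reuse the main values. These values are RNA levels, and protein was not measured here.

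NFKBIB encodes IkB-beta, an inhibitor that responds more slowly than IkB-alpha. It overlapped between the groups at all 3 of its probe sets. At 214448_x_at it read 9.06, 9.15 and 9.09 on the mimic arrays and 9.10, 9.03 and 9.02 on the control arrays, a difference of 0.049 ± 0.06 (SE; 95% interval -0.09 to 0.19). The other probe sets gave 0.09 ± 0.07 and 0.15 ± 0.09 (SE). The brighter 2 have the suffix x_at, which marks probes that can bind more than 1 transcript.

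NFKBIE encodes IkB-epsilon, a further inhibitor induced by NF-kB. It read 8.88, 8.84 and 8.78 on the mimic arrays and 8.75, 8.76 and 8.65 on the control arrays. The mimic arrays lay just above, by 0.11 ± 0.06 (SE; 95% interval -0.03 to 0.25, limma adjusted p = 0.232).

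NFKBIZ encodes a nuclear IkB protein that can repress NF-kB or help it at chosen promoters. At 223218_s_at it read 11.43, 11.55 and 11.75 on the mimic arrays and 11.56, 11.48 and 11.56 on the control arrays, and the mimic arrays spread on both sides of the control arrays. The difference was 0.045 ± 0.08 (SE; 95% interval -0.14 to 0.23), and its other probe set gave -0.15 ± 0.08 (SE). The sign turned without mimic replicate 3 (-0.042) and with both probe sets averaged (-0.053), so no direction can be given for NFKBIZ.

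Counted by probe set, 8 of the 22 were higher and 0 lower: all 5 of REL, both of TNFAIP3 and 1 of NFKBIA. Of all 54613 probe sets 24.8% were called, 11.6% of them higher and 13.1% lower as shares of all tested. The groups did not overlap at 13 of the 22, beside 39.2% of all probe sets. Probe sets of 1 gene share its transcript and are not independent of each other, and 5 of the 8 calls are REL.

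By Pearson's r over the 6 arrays, the genes whose values were most like those of REL were RPGR, a gene of the cilium (r = 0.9998), ADGRG2, an adhesion receptor (r = 0.9997), and CCN1, a secreted matrix-associated protein (r = 0.9997). They were higher in the mimic arrays by 1.46, 1.97 and 2.32 on the log2 scale. With 2 groups of 3 arrays such an r mostly records the distance between the groups. Of 19765 other genes 396 had an r above 0.99 with REL, so the order among them carries little.

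The rest of the pathway was read from 5 lists of 138 genes, of which 126 were measured. Of these, 17 rose and 41 fell, with a median difference of -0.03 beside 0.03 over all genes, of which 14.1% were higher and 16.3% lower. After quantile normalization of the arrays again, 27 rose and 40 fell, and 3418 of all genes were higher, beside 2780 in the main fit. Without control replicate 1, as without control replicate 2, 11 rose and 38 fell.

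**Figure D4:**
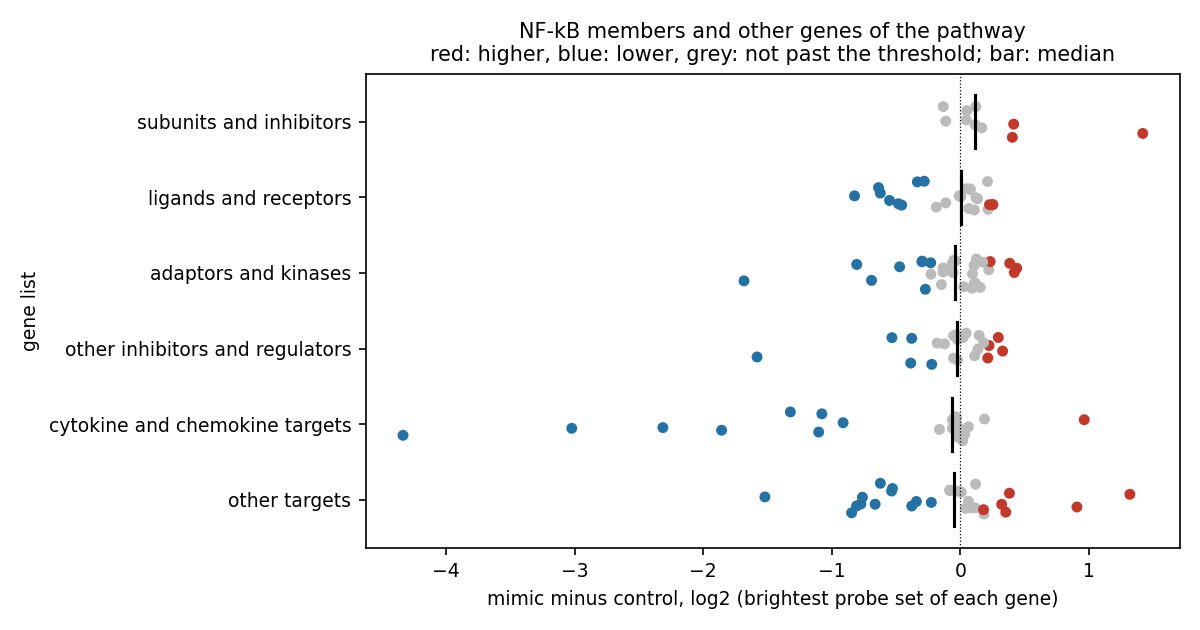
Difference between mimic and control arrays on the log2 scale for each member and for each measured gene of the 5 pathway lists; red genes were higher, blue genes lower and grey genes not past the threshold, and the black bar is the median of the row. The medians of the 5 lists lie close to 0, and the longest tail, down to -4.33, is that of the cytokine and chemokine targets.

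Of 23 measured ligands and receptors, 8 fell and 2 rose (median difference 0.0043). The toll-like receptor gene TLR1 fell by 0.82 ± 0.14 and EGFR, the growth factor receptor gene that these cells depend on, by 0.62 ± 0.08 (SE). TLR1 averaged 7.15 in the mimic arrays, below the array medians. EGFR was called lower on 5 of its 9 probe sets and higher on 0. Its other probe sets gave -0.04 to 0.37 without passing. The cytokine gene IL1A fell by 0.64 ± 0.06 (SE) at its brightest probe set, while its other probe set was higher by 0.28 (limma adjusted p = 0.0124), so its direction is uncertain. TNFRSF11A, the receptor for RANK ligand, and TLR2 rose by 0.25 ± 0.07 and 0.23 ± 0.06 (SE), and the dimmer TNFRSF11A probe set rose by 0.56 ± 0.09 (SE). Both calls at the brightest probe sets were lost without control replicate 1 (limma adjusted p = 0.0687 and 0.0636), without control replicate 2 (0.0574 and 0.0762) and without mimic replicate 2 (0.0637 and 0.0519), and that of TLR2 also without mimic replicate 3 (0.0588). Without these 4 arrays in turn, 0, 0, 1 and 1 genes of the list were higher. The tumour necrosis factor gene TNF itself averaged 7.26 and 7.21, below the array medians, and did not pass. It was named, like the IKK genes below, after its values were seen.

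Of 32 measured adaptors and kinases, 8 fell and 4 rose (median difference -0.04). The kinase gene MAP3K8, whose product is held by uncut NFKB1 protein, had the largest fall of the list. Its difference was -1.68 ± 0.12 (SE) at its brightest probe set and -0.47 ± 0.08 (SE) at the other. At the brightest its mimic arrays averaged 7.34, below the array medians. The adaptor gene TRAF3, a brake on the non-canonical pathway, fell by 0.81 ± 0.06 (SE) at its brightest probe set and by 0.28 ± 0.06 (SE) at the other. The scaffold gene CARD10 fell by 0.69 ± 0.07 (SE), on 1 of its 3 probe sets. TAB2, an adaptor of the kinase TAK1, rose by 0.44 ± 0.09, the receptor adaptor gene TRADD by 0.42 ± 0.07 and the toll-like receptor adaptor gene MYD88 by 0.38 ± 0.06 (SE). The 3 genes of the IKK complex did not pass at their brightest probe sets. CHUK had a difference of -0.06 ± 0.08, IKBKB of -0.12 ± 0.08 and IKBKG of 0.12 ± 0.06 (SE). Of the 3 IKBKB probe sets, however, 1 dimmer one was called lower.

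Of 22 other inhibitors and regulators, 5 fell and 4 rose (median difference -0.02). PELI1, a ubiquitin ligase gene of toll-like receptor signalling, fell by 1.58 ± 0.10 (SE); that was 1 of its 3 probe sets, and the others did not pass. The deubiquitinase gene USP21 fell by 0.39 ± 0.06 (SE), on all 3. The phosphatase subunit gene PPP6C fell by 0.53 ± 0.07 (SE) at the brightest of its 4 probe sets, but 2 of the 4 were higher and 2 lower, and their average was higher by 0.20. RNF11, a partner of TNFAIP3, rose by 0.33 ± 0.06 (SE). TRIM13, a ubiquitin ligase gene, and OTUD7B, a deubiquitinase gene related to TNFAIP3, had rises of 0.29 ± 0.07 and 0.22 ± 0.06 (SE). TRIM13 was called higher on 1 of its 4 probe sets, and its next brightest gave 0.0012 (limma adjusted p = 0.994). OTUD7B was called higher on 2 of its 6, and a dimmer one gave -0.10 without passing. With probe sets averaged neither gene passed (limma adjusted p = 0.0738 and 0.136). The OTUD7B call was lost without control replicate 1 (limma adjusted p = 0.0925), without control replicate 2 (0.0841) and without mimic replicate 2 (0.117). Without those arrays 2 genes of this list were higher in each case.

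Of 21 measured cytokine and chemokine targets, 8 fell and 1 rose (median difference -0.06). The neutrophil chemokine genes CXCL1, CXCL2 and CXCL8 had the 3 largest falls, with differences of -4.33 ± 0.10, -3.02 ± 0.11 and -2.31 ± 0.07 (SE). The CXCL2 value is that of an x_at probe set, and its other 2 probe sets gave -0.37 and 0.10. At the x_at probe set the mimic arrays averaged 7.46, below the array medians. CCL20, a chemokine gene that attracts dendritic cells and lymphocytes, was the gene that rose, from 9.48 ± 0.03 to 10.44 ± 0.08 (SD, n = 3 each), a difference of 0.96 ± 0.06 (SE). Without control replicate 3 the list had 2 rises. IL6, a standard NF-kB target, had a difference of -0.04 ± 0.06 (SE) and averaged 7.55 and 7.59, near the array medians.

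Of 28 other measured targets, 12 fell and 6 rose (median difference -0.05). The protease gene PLAU fell by 1.52 ± 0.07 (SE), on both probe sets. The complement gene CFB fell by 0.85 ± 0.08 and the survival gene IER3 by 0.81 ± 0.07 (SE), CFB on 1 of its 2 probe sets. PTGS2, the inducible cyclooxygenase gene, rose by 1.32 ± 0.10, the stress gene GADD45B by 0.91 ± 0.08 and the caspase inhibitor gene CFLAR by 0.38 ± 0.07 (SE). Over both target lists 7 of 49 measured genes rose and 20 fell, beside 14.1% higher and 16.3% lower of all genes. The lists were chosen with earlier results of these data known, so these counts are only a description.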

How the data were processed

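Total RNA of MCF10A cells was labelled with biotin and read on 6 single-colour arrays. The authors deposited log2 intensities made with RMA, per the submitters' processing notes, with no version, build or settings stated there. That they are log2 follows from their range, 3.67 to 14.95. RMA makes the arrays alike, so a change in total RNA would not show, and it compresses dim values. No detection calls were used, and precision is limited by having 3 arrays per group.

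The 62 control probe sets were left out, and 54613 were fitted with limma 3.58.1 (lmFit, eBayes) in R 4.3.3, mimic against control, adjusted by Benjamini-Hochberg. The fit was tried on simulated data in which 200 of the 54613 probe sets were changed. It recovered 64% of changes of 0.5 and 90% of changes of 1 on the log2 scale. A change of 0.5 can thus be missed. In the real data 24.8% of probe sets were called, so the simulation is unlike them in the share changed. Symbols came from the platform annotation, and all 22 member probe sets matched RefSeq by Entrez identifier and none listed several genes; probe sets with several symbols named no other gene. A gene was read at its single-symbol probe set with the highest mean. Tables were prepared with Python 3.11.15.

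Named were all members, the 3 largest rises and 3 largest falls past the threshold per list, and the 3 genes most correlated with the member of the largest difference. TNF, IL6 and the IKK genes were added after their values were seen. Members and lists were chosen with earlier results of these data known. The alternatives were leaving out the 40% dimmest probe sets or each array, quantile normalization, median centring, removing a loess trend (span 0.3), eBayes with trend and robust, a block for the replicate number, gene-by-gene array weights, other probe sets of a gene, and adjusted p under 0.01.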

Additional observations from a re-analysis of the deposited data

How the results depend on the processing

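The alternatives gave 160 values for the 10 members, and in 152 neither the direction nor the call changed. Some of the 160 could not differ from the main fit. The stricter threshold reused its values. Preferring probe sets without the suffix x_at or s_at kept the main probe set of NFKB1, REL, RELA, RELB, NFKBIE, NFKBIZ and TNFAIP3. REL and TNFAIP3 were called under all 16 alternatives, NFKBIA under 15. The exceptions were RELA and RELB, given above, RELB also with its probe set fitted among gene averages (adjusted p = 0.0382), NFKBIA at its dimmer probe set (0.15), NFKB2 with probe sets averaged (0.0144), and NFKBIZ with probe sets averaged (-0.053). Without 1 array NFKBIZ ranged from -0.042 (without mimic replicate 3) to 0.12. Of 432 values of the 27 named pathway genes 409 held; those that reversed were IL1A (0.28) and CXCL2 (0.10) where probe sets without the suffix x_at or s_at were preferred, and PPP6C with probe sets averaged (0.20). Members higher were 5 after quantile normalization, where 3418 of all genes were higher, beside 2780 in the main fit. Without any 1 array 3 members were higher, and member probe sets were 7 to 8. At an adjusted p under 0.01, by construction fewer, 1815 genes and 3828 probe sets were higher, and 0 ligands and receptors and 1 other regulator rose (10 pathway genes in all). With array weights 9576 probe sets, 5 ligands and receptors and 2 cytokine targets were higher. After quantile normalization 9 adaptors and kinases and 2 cytokine targets were higher; 2 cytokine targets were also higher with probe sets averaged, without the dimmest, and with unsuffixed probe sets preferred. The causes were not tested. Without 1 array, the genes higher were 0 to 2 ligands and receptors, 2 to 4 other regulators and 1 to 2 cytokine targets.

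Replicate numbers are shared by the groups. The r of deviations of same-numbered arrays was -0.107, 0.084 and 0.082, within the range of arrays with unlike numbers (-0.186 to 0.12). With 3 arrays per group this cannot show whether same-numbered arrays were handled together, and the labels used here do not say. With the replicate number as a block, 3 members, 8 member probe sets and 2683 genes were higher and 3129 lower, 0 of them members. Not every array correlated best with its own number.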
